A study of Homo sapiens with 60 samples.

Results

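The 47 genes described here encode proteins that copy the genome and prepare its copying. They were chosen by name, from rows of the deposited count table whose Ensembl identifier maps to 1 of 47 symbols, and all 47 were found among 60675 rows. They fall into 9 roles: 5 genes of origin licensing, 6 subunits of the MCM2-7 helicase, 8 genes of helicase activation, 8 of primase and the polymerases, 5 of the sliding clamp and its loader, 3 of fragment joining and single-strand binding, 4 of deoxynucleotide supply, 4 of chromatin assembly and DNA methylation upkeep, and 4 of S-phase entry and its checkpoint. They lie on 19 chromosomes.

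The libraries are mRNA of HepG2, an established human hepatocellular carcinoma line, after 24 h with a water extract or with vehicle. Of the extracts, 4 were of 1 herb: Aconiti Lateralis Radix Preparata, Bupleuri Radix, Cimicifugae Rhizoma and Citri Unshius Pericarpium. The other 3, Banhasasim-tang, Bojungikgi-tang and Yijung-tang, were mixtures of herbs. Each extract was given at 20, 100 and 500 µg/mL, with 3 libraries a dose except for Bojungikgi-tang, which had 1. A further 3 libraries received vehicle, given as 0.1% DMSO in the sample labels and as 2% DMSO in the description of the series. Whether the libraries of a group came from separate cultures is not stated, and the error behind each p-value is therefore the spread among libraries, which could be technical. HepG2 is 1 tumour line, and a change in it need not hold in normal liver cells.

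Before a cell enters S phase, the origin recognition complex, CDC6 and CDT1 load the MCM2-7 helicase onto DNA, and GMNN (geminin) keeps this from happening a second time. The kinase CDC7 with DBF4, together with CDC45 and the GINS complex, then switches the helicase on, and polymerases follow it with PCNA as their sliding clamp. In dividing cells most of these genes are transcribed around the G1/S boundary, when cyclin-dependent kinases release E2F factors such as E2F1 from the retinoblastoma family of proteins.

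Depth ranged from 17598646 to 30451640 expected counts per library, and each member passed the filter on low counts, so 47 of the 16093 genes tested were members. Hepatocyte genes were high in every library: ALB lay between 4852 and 10169 TPM (a level scaled for gene length and library size) and AFP between 2334 and 4167 TPM. Of 15 markers of other cell types, KRT5 and TP63 were at 0 in all libraries, COL3A1 and DCN reached at most 0.0385 TPM and 0.00996 TPM, and ACTA2 was the highest at 35.4 to 64.2 TPM. The summed level of the 15 in CPM (counts scaled to library size, not to gene length) was 71.8 to 77.6 CPM at 20 µg/mL Cimicifugae Rhizoma and 58.3 to 62.0 CPM at 500 µg/mL, and with Aconiti Lateralis Radix Preparata 70.4 to 75.2 and 58.2 to 60.7 CPM. The vehicle libraries stood apart: their counts tilted towards genes of low GC content, with slopes of -0.0167 to -0.0142 log2 units per percent GC. The summed level of 13 transcripts watched for RNA quality (histone transcripts, mostly without poly(A), and nuclear RNAs) was 1195.9 to 1313.6 CPM in vehicle and 1294.9 to 1516.3 CPM over the libraries at 20 µg/mL, where only those of Aconiti Lateralis Radix Preparata overlapped vehicle among the 6 replicated extracts. The part of either shift in the comparisons with vehicle was not tested, apart from the fits with the GC trend removed. For that reason the comparison of 500 with 20 µg/mL within an extract comes first here, and comparisons with vehicle follow.

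In vehicle-treated cells the members spanned 3.66 TPM for CCNE2 to 896 TPM for PCNA, with a median of 48.0 TPM. The RefSeq promoter table (GRCh38.p14) held a sequence for 41 of the 47, covering 250 bases before to 50 bases after the start. A core E2F word (TTTGGCGC, TTTCGCGC, TTTCCCGC or TTTGCCGC, read on both strands, overlaps counted) stood in 20 of the 41, or 48.8%, against 3.33% of all 27305 promoters in the table. The CCAAT box stood in 53.7% against 35.7%, the GC box GGGCGG in 73.2% against 44.6%, and TTTGAA, the core of the CHR element of mitotic genes, in 7.32% against 15.4%. Below are the promoters of the 3 members that fell most with Cimicifugae Rhizoma and of 2 that moved little, in that order, so that the words can be seen at both ends of the response. E2F words and CCAAT boxes (ATTGG on the other strand) are in capitals. The MCM2 promoter is chr3:127598161-127598460 on the plus strand, that of ASF1B chr19:14136540-14136839 on the minus strand, that of POLA1 chrX:24693668-24693967 on the plus strand, that of E2F1 chr20:33686336-33686635 on the minus strand and that of GMNN chr6:24774687-24774986 on the plus strand.
MCM2: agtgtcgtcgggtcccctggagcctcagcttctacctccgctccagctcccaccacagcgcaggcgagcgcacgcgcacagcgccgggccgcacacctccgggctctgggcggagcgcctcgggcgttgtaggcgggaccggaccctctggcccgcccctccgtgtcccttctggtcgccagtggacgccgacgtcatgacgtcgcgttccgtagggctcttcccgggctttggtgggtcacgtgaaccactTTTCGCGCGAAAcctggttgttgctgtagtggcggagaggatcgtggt
ASF1B: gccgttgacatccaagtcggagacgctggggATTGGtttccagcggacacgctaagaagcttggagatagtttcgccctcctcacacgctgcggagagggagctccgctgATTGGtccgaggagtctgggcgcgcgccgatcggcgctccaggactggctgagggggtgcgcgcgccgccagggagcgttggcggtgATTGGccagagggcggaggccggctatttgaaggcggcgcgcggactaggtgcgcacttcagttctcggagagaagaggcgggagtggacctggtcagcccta
POLA1: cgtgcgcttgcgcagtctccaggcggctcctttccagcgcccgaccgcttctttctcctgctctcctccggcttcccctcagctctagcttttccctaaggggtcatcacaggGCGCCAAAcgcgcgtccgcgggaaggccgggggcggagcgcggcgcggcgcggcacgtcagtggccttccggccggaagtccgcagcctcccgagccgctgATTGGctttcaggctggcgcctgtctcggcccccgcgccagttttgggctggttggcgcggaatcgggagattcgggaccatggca
E2F1: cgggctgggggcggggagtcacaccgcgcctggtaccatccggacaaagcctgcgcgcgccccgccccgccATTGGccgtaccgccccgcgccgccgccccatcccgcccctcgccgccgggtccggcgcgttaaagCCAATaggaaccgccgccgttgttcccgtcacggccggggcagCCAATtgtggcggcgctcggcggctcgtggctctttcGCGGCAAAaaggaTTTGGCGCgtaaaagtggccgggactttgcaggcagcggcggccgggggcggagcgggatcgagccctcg
GMNN: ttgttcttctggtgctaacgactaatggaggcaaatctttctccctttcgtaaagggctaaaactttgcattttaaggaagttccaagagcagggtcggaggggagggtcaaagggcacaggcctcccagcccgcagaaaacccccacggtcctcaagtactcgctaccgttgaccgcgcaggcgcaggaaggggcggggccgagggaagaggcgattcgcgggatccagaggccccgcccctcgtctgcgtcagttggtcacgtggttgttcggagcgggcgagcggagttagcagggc
MCM2 has a pair of overlapping E2F words just after its start, POLA1 has 1 word and 1 CCAAT box, and E2F1 has 2 words and 3 CCAAT boxes. ASF1B has 3 CCAAT boxes and no E2F word, and GMNN has neither. A match describes letters in the window and not a bound factor.

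The members' summed level fell with 3 extracts at the top dose. It was 4018.8 ± 15.1 CPM (SD, n = 3) at 20 µg/mL Cimicifugae Rhizoma and 2670.3 ± 24.8 CPM at 500 µg/mL, 66.4% of the former. With Aconiti Lateralis Radix Preparata it went from 4047.9 ± 37.1 to 3150.8 ± 9.38 CPM (77.8%), and with Bupleuri Radix from 4026.3 ± 31.4 to 3495.3 ± 25.4 CPM (86.8%). In these 3 extracts no library at 500 µg/mL overlapped one at 20 µg/mL. The 3 vehicle libraries summed to 4132.6 ± 17.9 CPM, and every group mean of the other extracts and doses lay between 3940.7 and 4178.8 CPM. In bulk RNA, fewer cells in S phase and less of these transcripts per cell cannot be told apart.

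**Figure D1:**
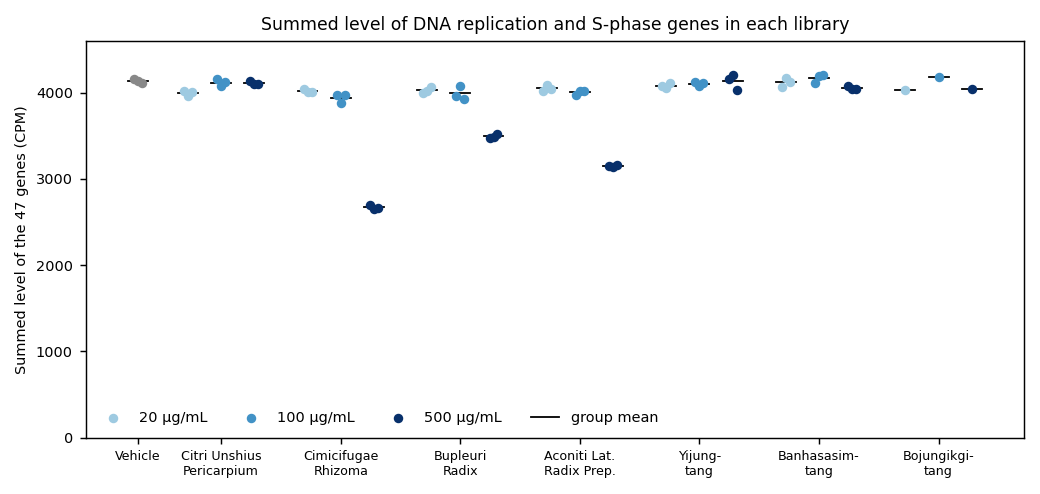
Summed level of the 47 genes in CPM (vertical axis) for each library (points), by extract and dose, with the group mean as a black line; Bojungikgi-tang has 1 library a dose. The 500 µg/mL groups of Cimicifugae Rhizoma, Aconiti Lateralis Radix Preparata and Bupleuri Radix sit at 2670.3, 3150.8 and 3495.3 CPM, below all others.

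With Cimicifugae Rhizoma 46 of 47 members fell between 20 and 500 µg/mL and 0 rose (0 also at an unadjusted p under 0.05 and with DESeq2). Over all genes tested, 19.7% fell and 19.5% rose. The median member changed by -0.55 on the log2 scale, to 68.1% of its level at 20 µg/mL, while the median of all genes was 0.00. Calls are at an adjusted p under 0.05 in edgeR's quasi-likelihood test with Benjamini-Hochberg adjustment over the 16093 genes, here and below, and errors of log2 changes are standard errors at n = 3 per group.

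Helicase genes fell most, all 6 of them, by a median of 0.80 on the log2 scale. MCM2 was at 187, 190 and 184 CPM in the libraries at 20 µg/mL and at 102, 99.2 and 96.6 CPM at 500 µg/mL, a change of -0.92 ± 0.046 (adjusted p = 5.12e-22). MCM3, which had the highest level per length of the 6 in vehicle (317 TPM), went from 323, 328 and 319 CPM to 184, 183 and 189 CPM, a change of -0.81 ± 0.028 (adjusted p = 3.96e-28). All 3 libraries at the top dose were below all 3 at the low dose for both genes. The least affected subunit, MCM6, still changed by -0.53.

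Licensing factors were lower as well, 5 of 5, with changes from -0.62 to -0.25. CDC6, which helps load the helicase, was at 116, 111 and 115 CPM at 20 µg/mL and at 77.7, 73.7 and 76.2 CPM at 500 µg/mL (log2 change -0.59 ± 0.040). GMNN, the inhibitor of CDT1, went only from 80.9, 80.7 and 84.4 CPM to 70.7, 68.8 and 68.1 CPM (-0.25 ± 0.057). CDT1 itself changed by -0.62 and ORC6, a subunit of the origin recognition complex, by -0.26. So the inhibitor and ORC6 were among the members that moved least, and CDT1 and CDC6 were not.

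Genes that switch the helicase on fell in 8 of 8 cases (median -0.63). GINS1, a subunit of the GINS complex, was at 65.4, 63.6 and 65.3 CPM at the low dose and at 38.2, 36.3 and 40.0 CPM at the top dose (-0.77 ± 0.058), with no overlap. The smallest change in this group, -0.41, was that of CDC45, the helicase's partner.

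All 8 genes of primase and the polymerases fell, from -0.84 for POLA1 to -0.39 for PRIM2 and POLA2. POLA1, the catalytic subunit of the polymerase that lays down primers, was at 48.0, 43.9 and 48.4 CPM at 20 µg/mL and at 26.5, 26.5 and 25.5 CPM at 500 µg/mL (-0.84 ± 0.051). POLE, the leading-strand polymerase, went from 104, 102 and 107 CPM to 62.7, 67.6 and 69.2 CPM (-0.66 ± 0.083). PRIM2 has near-identical copies in the genome, so its own count is uncertain.

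The clamp PCNA and its loader fell in 5 of 5 cases and the joining and single-strand binding genes in 3 of 3. PCNA was at 327, 334 and 341 CPM and then at 249, 235 and 243 CPM (-0.47 ± 0.054). FEN1, which trims the flaps of lagging-strand fragments, went from 87.3, 84.6 and 85.5 CPM to 66.3, 59.7 and 57.4 CPM (-0.49 ± 0.049). RFC3 at -0.67 and LIG1, the ligase that seals the fragments, at -0.70 were the lowest of these 2 roles.

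Deoxynucleotide genes fell in 4 of 4 cases and chromatin genes in 4 of 4. RRM2, the regulated subunit of ribonucleotide reductase, was at 335, 318 and 325 CPM at the low dose and at 243, 232 and 242 CPM at the top dose (-0.45 ± 0.034). TK1, the thymidine salvage kinase, went from 74.7, 81.1 and 80.6 CPM to 47.8, 51.8 and 46.9 CPM (-0.69 ± 0.055). Both lay apart at the 2 doses. ASF1B, a histone chaperone of dividing cells, went from 39.9, 43.0 and 42.5 CPM to 23.5, 22.6 and 21.8 CPM (-0.89 ± 0.055). UHRF1, which brings the maintenance DNA methyltransferase to newly made DNA, went from 148, 154 and 145 CPM to 93.5, 98.4 and 93.8 CPM (-0.65 ± 0.042). These 2 did not overlap between doses either.

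The 4 genes of S-phase entry and its checkpoint moved least, by a median of -0.20. CLSPN, the adaptor that passes the stress signal to the checkpoint kinase CHEK1, changed by -0.46 and CCNE1, a cyclin that drives the G1/S step, by -0.26. E2F1 was at 59.4, 58.5 and 60.3 CPM at 20 µg/mL and at 53.8, 53.7 and 54.9 CPM at 500 µg/mL, a change of -0.14 ± 0.046 (adjusted p = 0.0126). CCNE2, the other E-type cyclin, was at 4.96, 4.42 and 3.98 CPM and at 4.64, 3.49 and 4.66 CPM (-0.07 ± 0.15, adjusted p = 0.767), the only member without a call. Its libraries overlapped between doses, its error was the largest of the 47, and 37.0% of its exon bases are shared with INTS8 on the opposite strand.

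**Figure D2:**
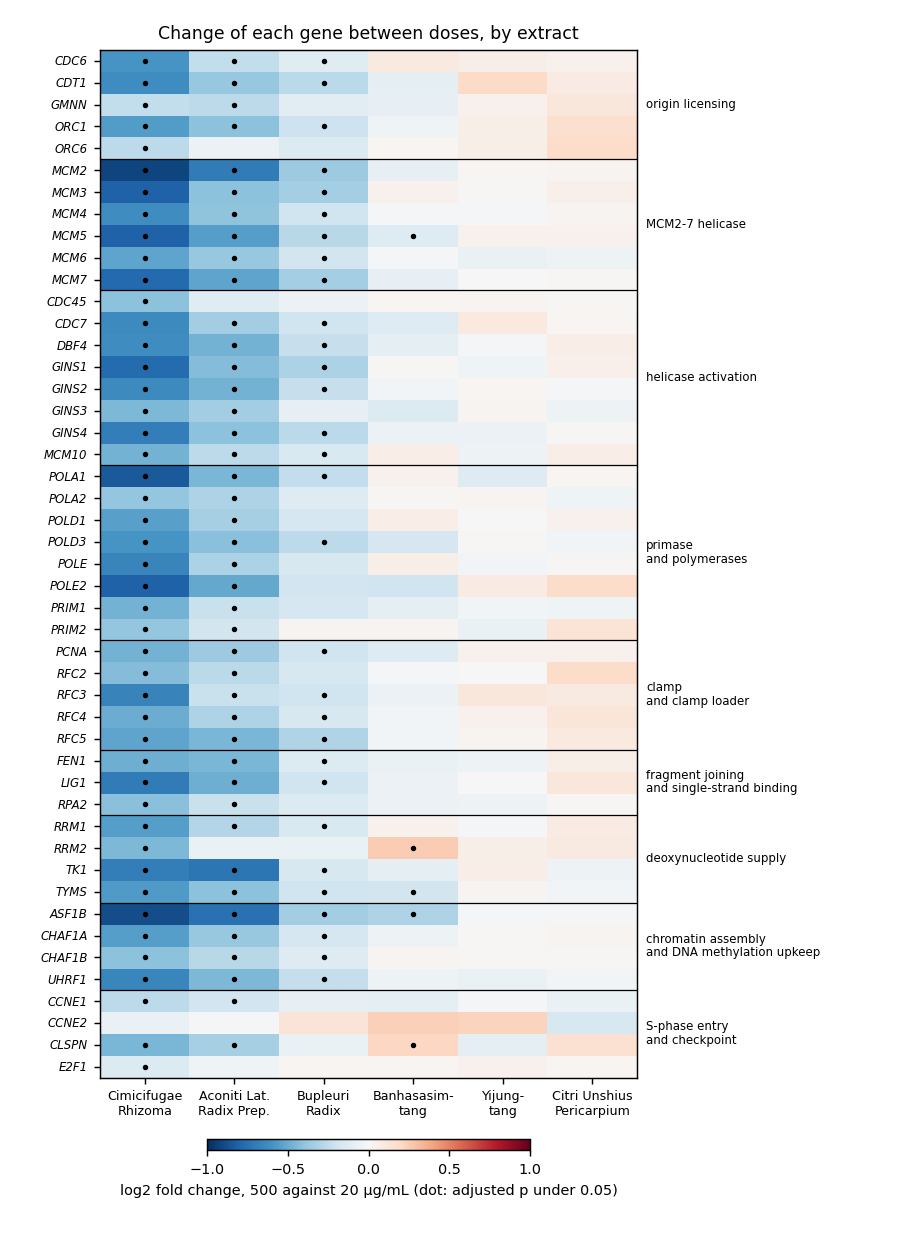
Log2 fold change of each of the 47 genes (rows, grouped by role) between 500 and 20 µg/mL in 6 extracts (columns), from blue (lower at 500 µg/mL) to red (higher), with a dot where the adjusted p is under 0.05. Cimicifugae Rhizoma has 46 dots, Aconiti Lateralis Radix Preparata 42, Bupleuri Radix 30, Banhasasim-tang 5, and the other columns none.

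Aconiti Lateralis Radix Preparata at 500 µg/mL lowered 42 of 47 members relative to 20 µg/mL and raised 0 (0 at an unadjusted p under 0.05, 0 with DESeq2), with a median of -0.36. Over all genes 18.1% fell and 19.2% rose. The 3 lowest were ASF1B, TK1 and MCM2. ASF1B went from 38.5, 40.8 and 42.1 CPM to 24.5, 23.9 and 24.2 CPM (-0.75 ± 0.053, adjusted p = 1.10e-16). TK1 went from 74.3, 85.8 and 80.6 CPM to 48.7, 48.0 and 49.9 CPM (-0.72 ± 0.054). MCM2 went from 187, 196 and 201 CPM to 119, 116 and 127 CPM (-0.70 ± 0.045). None of the 3 overlapped between doses, and ASF1B and TK1 fell further than any helicase subunit here.

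The helicase fell in 6 of 6 cases, with MCM3 going from 316, 330 and 317 CPM to 238, 245 and 248 CPM (-0.41 ± 0.028). CDC6 went from 118, 110 and 117 CPM to 98.7, 94.2 and 98.0 CPM (-0.25 ± 0.039). GINS1 went from 63.7, 61.7 and 61.8 CPM to 45.2, 49.6 and 45.4 CPM (-0.43 ± 0.056). These 3 lay apart at the 2 doses, as did PCNA and FEN1. PCNA was at 334, 339 and 313 CPM and then 261, 268 and 245 CPM (-0.36 ± 0.053). FEN1 was at 82.8, 91.1 and 85.7 CPM and then 63.6, 62.2 and 63.9 CPM (-0.46 ± 0.048). POLE changed by -0.32 ± 0.081 and UHRF1 by -0.45 ± 0.042.

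The 5 members without a call with this extract were ORC6, CDC45, RRM2, E2F1 and CCNE2. RRM2, called with Cimicifugae Rhizoma, was at 337, 338 and 325 CPM at the low dose and at 327, 324 and 308 CPM at the top dose (-0.07 ± 0.034, adjusted p = 0.125). E2F1 was at 56.8, 59.4 and 58.9 CPM and at 58.0, 56.0 and 56.7 CPM (-0.04 ± 0.046), and CCNE2 at 3.25, 5.50 and 4.78 CPM and at 4.95, 4.17 and 4.35 CPM (-0.02 ± 0.14). ORC6 was between 53.8 and 56.5 CPM at 20 µg/mL and between 51.9 and 54.0 CPM at 500 µg/mL (-0.06 ± 0.056). In each of these the doses overlapped.

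Bupleuri Radix lowered 30 of 47 members and raised 0 (0 at an unadjusted p under 0.05, 0 with DESeq2), with a median of -0.17. Over all genes 8.89% fell and 9.9% rose. MCM2 was at 189, 185 and 193 CPM and then at 142, 148 and 152 CPM (-0.36 ± 0.045, adjusted p = 1.06e-08). ASF1B was at 38.3, 44.0 and 41.9 CPM and then at 31.5, 33.8 and 32.3 CPM (-0.35 ± 0.051). MCM7 was at 258, 267 and 283 CPM and then at 210, 216 and 211 CPM (-0.34 ± 0.038). In each the top dose lay wholly below the low dose. MCM3 was at 322 CPM in each library at 20 µg/mL and at 251, 252 and 260 CPM at 500 µg/mL (-0.34 ± 0.028).

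By role, Bupleuri Radix lowered all 6 helicase genes and all 4 chromatin genes, but 2 of 8 polymerase genes, POLA1 and POLD3. GINS1 went from 69.0, 69.2 and 63.2 CPM to 53.5, 54.6 and 53.2 CPM (-0.32 ± 0.055). PCNA went from 326, 339 and 336 CPM to 289, 292 and 290 CPM (-0.20 ± 0.053), and UHRF1 changed by -0.24 ± 0.041. E2F1 was at 63.5, 59.7 and 66.8 CPM and at 62.5, 63.0 and 67.9 CPM (0.02 ± 0.045, adjusted p = 0.794), with overlap. CCNE2 was at 4.46, 4.21 and 5.16 CPM and at 5.53, 5.05 and 4.66 CPM (0.13 ± 0.14), and PRIM2 at 22.6, 22.7 and 22.6 CPM and at 24.0, 22.6 and 22.9 CPM (0.03 ± 0.059). Neither was called, nor were RRM2 (-0.07 ± 0.034), POLE (-0.16 ± 0.080), CLSPN (-0.07 ± 0.068) and CCNE1 (-0.08 ± 0.060).

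Some of the smaller calls in Bupleuri Radix rest on single libraries. CDC6 (-0.12 ± 0.039, adjusted p = 0.0223) was at 117, 118 and 111 CPM and then at 107, 107 and 105 CPM. It lost its call without replicate 1 (adjusted p = 0.0874) or 2 (0.0894) of the 20 µg/mL libraries, and without replicate 3 of the 500 µg/mL libraries (0.0744). FEN1 (-0.14 ± 0.047, adjusted p = 0.0217) lost its call without replicate 2 (0.0651) or 3 (0.0529) at 20 µg/mL, and without replicate 1 (0.0969) or 2 (0.122) at 500 µg/mL. Both also lost their call when only the libraries of the title set were fitted (0.0513 for CDC6 and 0.0658 for FEN1).

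The 3 extracts lowered overlapping members to different degrees. Of 47 members, 30 were lower with all 3, against 1049 of all genes tested (6.52%). The log2 changes stood in the order Cimicifugae Rhizoma below Aconiti Lateralis Radix Preparata below Bupleuri Radix for 43 of 47 members. Across the 47 genes, which are not independent replicates, Pearson's r between the changes was 0.82 for Cimicifugae Rhizoma and Aconiti Lateralis Radix Preparata, 0.84 for Cimicifugae Rhizoma and Bupleuri Radix, and 0.76 for the remaining pair. These comparisons share no library. TK1, at -0.72 and -0.69, was about as low with Aconiti Lateralis Radix Preparata as with Cimicifugae Rhizoma, while RRM2 was at -0.07 and -0.45 and RFC3 at -0.22 and -0.67. These 2 extracts belong to different sets, and the difference between them was not tested gene by gene.

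**Figure D3:**
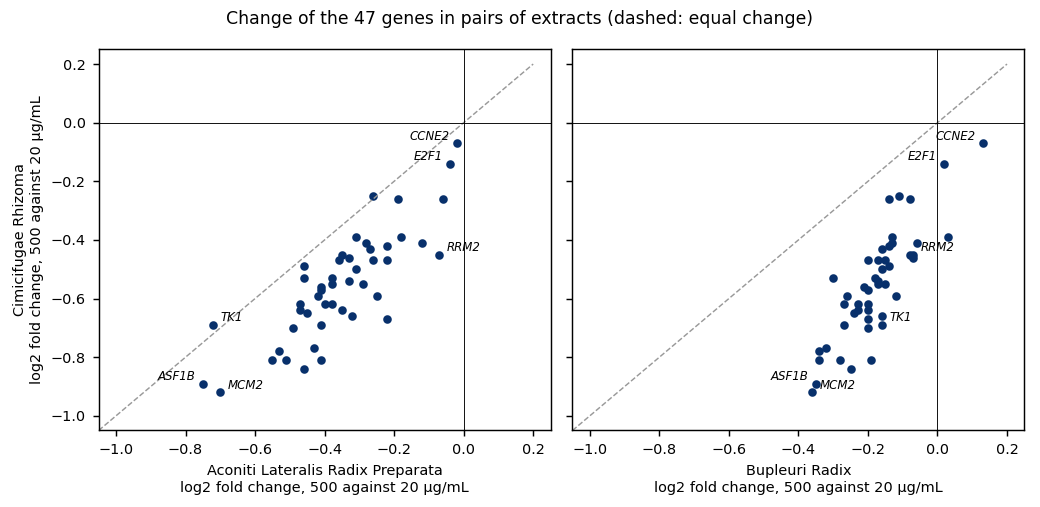
Log2 fold change between 500 and 20 µg/mL for each of the 47 genes (points) with Cimicifugae Rhizoma (vertical axis) against Aconiti Lateralis Radix Preparata (left) and Bupleuri Radix (right); the dashed line marks equal change. Pearson's r is 0.82 on the left and 0.84 on the right, and nearly all points lie below the line.

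Members with an E2F word in the promoter had a median change of -0.65 with Cimicifugae Rhizoma (20 genes, -0.92 to -0.14) and members without one -0.49 (21 genes, -0.89 to -0.25). With Aconiti Lateralis Radix Preparata the medians were -0.40 and -0.29, and with Bupleuri Radix -0.20 and -0.16. The ranges overlapped almost wholly: ASF1B, whose promoter printed above has no such word, was second lowest, and E2F1, whose promoter has 2, moved little. These medians are a description, and no test was made of them.

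Citri Unshius Pericarpium and Yijung-tang gave no call among the members between 500 and 20 µg/mL. With Citri Unshius Pericarpium edgeR called 0 of 47, against 0.92% of all genes lower and 0.727% higher; 10 members were higher and 0 lower at an unadjusted p under 0.05, and DESeq2 called 0. The median was 0.03. The lowest values were those of CCNE2 (-0.16 ± 0.14), CCNE1 (-0.07 ± 0.062) and MCM6 (-0.05 ± 0.040), and the highest those of POLE2 (0.18 ± 0.088), ORC6 (0.18 ± 0.056) and RFC2 (0.18 ± 0.062). MCM3 was at 317, 325 and 335 CPM and at 329, 339 and 339 CPM, and ORC6 at 52.3, 53.7 and 50.8 CPM and at 56.3, 58.3 and 62.7 CPM (adjusted p = 0.102). The MCM3 libraries overlapped, and those of ORC6 did not.

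With Yijung-tang, a mixture, 0 of 47 members were called against 2.12% of all genes lower and 1.65% higher. At an unadjusted p under 0.05, 1 member was lower and 1 higher. DESeq2 called 0 lower and 1 higher, and edgeR 1 higher without Yijung-tang replicate 3 at 500 µg/mL. Other fits in edgeR also called 1 higher: with no low-count filter, with a replicate block, and with the GC trend removed, with or without that block. CDT1 had the second highest value, with 80.5, 77.3 and 77.7 CPM at 20 µg/mL and 93.7, 93.8 and 82.1 CPM at 500 µg/mL (0.19 ± 0.059, adjusted p = 0.0535). CCNE2 (0.22 ± 0.14) and RFC3 (0.11 ± 0.069) were the others at the top, and POLA1 (-0.13 ± 0.046), CLSPN (-0.10 ± 0.067) and UHRF1 (-0.07 ± 0.041) were the lowest. Bojungikgi-tang, with 1 library per dose and so no test, had a median log2 ratio of 0.01 between 500 and 20 µg/mL, with members from -0.21 to 0.11. MCM2 was at 182 CPM at 20 µg/mL and 186 CPM at 500 µg/mL of that mixture, and MCM3 at 332 and 319 CPM.

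Banhasasim-tang moved a few members in both directions, 3 lower and 2 higher, beside 6.52% of all genes lower and 8.59% higher. ASF1B was at 40.7, 46.2 and 42.7 CPM at 20 µg/mL and at 35.1, 34.6 and 34.3 CPM at 500 µg/mL (-0.31 ± 0.050, adjusted p = 4.59e-06). RRM2 was at 307, 324 and 332 CPM and at 379, 381 and 381 CPM (0.25 ± 0.034, adjusted p = 1.69e-07). Both lay apart at the 2 doses, in opposite directions. MCM5 was lower (-0.13 ± 0.045), TYMS, which makes thymidylate, was lower (-0.18 ± 0.051, adjusted p = 0.0113) and CLSPN was higher (0.21 ± 0.067, adjusted p = 0.0207).

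TYMS lost its call without replicate 2 (adjusted p = 0.0597) or 3 (0.0685) at 20 µg/mL or replicate 1 at 500 µg/mL (0.0740), or when only the libraries of its own set were fitted (0.0690), and shares 39.1% of its exon bases with ENOSF1 on the opposite strand. CLSPN lost its call without replicate 1 (0.101) or 2 (0.0704) at 20 µg/mL, or 2 (0.0921) or 3 (0.0699) at 500 µg/mL. The count of lower members was 1 without replicate 2 at 20 µg/mL, and 1 when only the libraries of this mixture's own set were fitted. The count of higher members was 1 without replicate 1 or 2 at 20 µg/mL or replicate 2 or 3 at 500 µg/mL. POLE2 (-0.20 ± 0.085) and CCNE2 (0.24 ± 0.14) were as far from 0 but were not called. MCM5, ASF1B and TYMS were lower with 4 of 6 extracts, and no member was lower with more.

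**Figure D4:**
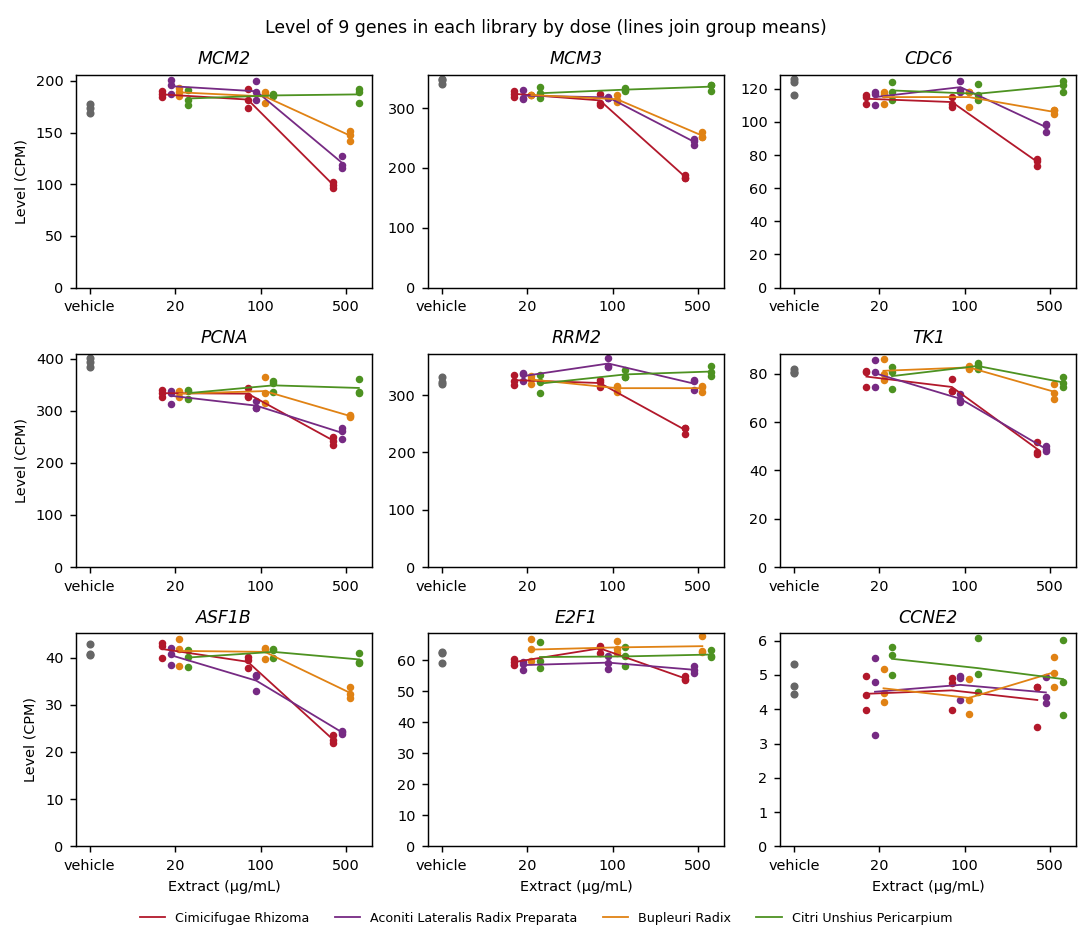
Level in CPM (vertical axis, from 0) of 9 of the genes in each library (points) by dose for 4 single-herb extracts, with lines joining group means and vehicle libraries in grey. With Cimicifugae Rhizoma, Aconiti Lateralis Radix Preparata and Bupleuri Radix the fall appears mainly between 100 and 500 µg/mL. E2F1 and CCNE2 move least, and no member was called with Citri Unshius Pericarpium.

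At 100 µg/mL few members were called. Comparisons of 100 with 20 µg/mL share the 20 µg/mL libraries with those above. With Aconiti Lateralis Radix Preparata 2 members were lower and 0 higher, where 5.68% of all genes were called in either direction: TK1 at 69.1, 71.5 and 68.4 CPM (-0.21 ± 0.052, adjusted p = 0.00762) and ASF1B at 33.0, 36.1 and 36.3 CPM (-0.21 ± 0.050, adjusted p = 0.00555). They are the 2 members that this extract lowered most at 500 µg/mL. One of the calls was lost without replicate 1 or 3 at 100 µg/mL, and without replicate 2 or 3 at 20 µg/mL. In the other 5 extracts edgeR called 0 members at 100 µg/mL. The share of all genes called was 0.0249% for Citri Unshius Pericarpium, 1.29% for Cimicifugae Rhizoma, 0.162% for Bupleuri Radix, 1.24% for Yijung-tang and 0.0124% for Banhasasim-tang. At an unadjusted p under 0.05 these had 5, 5, 4, 3 and 3 members, and DESeq2 called 1 member, in Yijung-tang.

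Against vehicle, the same 3 extracts at 500 µg/mL again lowered most members. These comparisons share the 3 vehicle libraries. The titles place vehicle in none of the sets of the extracts, so extract and set cannot be told apart in these comparisons. Cimicifugae Rhizoma had 46 lower and 0 higher (22.3% and 23.5% of all genes; 0 higher also unadjusted and with DESeq2), Aconiti Lateralis Radix Preparata 42 lower and 0 higher (22.9% and 24.5%; 1 higher at an unadjusted p under 0.05, 0 with DESeq2), and Bupleuri Radix 34 lower and 1 higher (16.6% and 19%). MCM3 changed by -0.90 with Cimicifugae Rhizoma, -0.51 with Aconiti Lateralis Radix Preparata and -0.44 with Bupleuri Radix, from 348, 347 and 341 CPM in vehicle. PCNA changed by -0.70, -0.61 and -0.43, from 401, 384 and 393 CPM in vehicle. CDT1 was the member higher with Bupleuri Radix, at 0.15, a call that was lost without Bupleuri Radix replicate 2 or 3 at 500 µg/mL or without any 1 of the vehicle libraries. It was also lost with the GC trend removed, and when only the libraries of the title set and vehicle were fitted.

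In the other extracts fewer members were lower than vehicle, and some were higher. Citri Unshius Pericarpium had 5 lower and 6 higher (9.78% and 12.7% of all genes), Yijung-tang 11 and 9 (15.1% and 17.5%) and Banhasasim-tang 15 and 6 (16.2% and 18.6%). CDT1, MCM5, POLD1 and POLE were higher with all 3. With the trend on GC content removed from each library, the members higher were 5 with Citri Unshius Pericarpium, 2 with Yijung-tang and 3 with Banhasasim-tang, so not all 4 of these genes were called higher with either mixture. The members lower were then 6, 6 and 13. Single libraries moved these counts: Citri Unshius Pericarpium had 3 lower without its replicate 2 or 3 at 500 µg/mL or without vehicle replicate 2. Yijung-tang had 7 lower and 4 higher without its replicate 1 at 500 µg/mL, and Banhasasim-tang 9 lower without its replicate 3.

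Members differed from vehicle already at 20 µg/mL: 14 with Citri Unshius Pericarpium (19.3% of all genes), 13 with Cimicifugae Rhizoma (19%), 16 with Bupleuri Radix (21.9%), 21 with Aconiti Lateralis Radix Preparata (31.2%), 19 with Yijung-tang (27.2%) and 18 with Banhasasim-tang (28.4%). The members' share was somewhat above that of all genes in each extract. These counts also moved with single libraries: with Banhasasim-tang 11 members were lower, but 5 without its replicate 1 or without vehicle replicate 2, and 6 without its replicate 2 or without vehicle replicate 1. With Yijung-tang 12 were lower, but 7 without its replicate 1 or vehicle replicate 1, and with Cimicifugae Rhizoma 8 were lower, but 4 without its replicate 3 or vehicle replicate 2. Members higher were 5 with Citri Unshius Pericarpium but 3 without its replicate 2 or 3 or without vehicle replicate 1 or 2, 5 with Cimicifugae Rhizoma but 3 without vehicle replicate 1, 6 with Bupleuri Radix but 3 without its replicate 1 or 3 or without vehicle replicate 1 or 2, and 7 with Banhasasim-tang but 4 without vehicle replicate 2.

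At 20 µg/mL 5 members were called in all 6 extracts: CDT1, MCM5 and POLD1 were higher than vehicle in each, at 0.30 to 0.51, 0.19 to 0.29 and 0.22 to 0.41, and GMNN and MCM6 were lower in each, at -0.27 to -0.15 and -0.18 to -0.10. Other members differed as much without a call in every extract, such as PRIM1 at -0.33 to -0.17 and POLE at 0.19 to 0.31. CDT1 and POLD1 transcripts hold 64.9% and 65.0% GC, and those of GMNN and MCM6 43.6% and 43.1%. Across the 47 members Pearson's r between transcript GC content and the change from vehicle at 20 µg/mL was 0.53 with Citri Unshius Pericarpium and 0.82 with Banhasasim-tang, the lowest and the highest of the 6. With the GC trend removed, members higher at 20 µg/mL were 1 in place of 5 with Citri Unshius Pericarpium, 2 in place of 5 with Cimicifugae Rhizoma, 2 in place of 6 with Bupleuri Radix, 4 in place of 7 with Aconiti Lateralis Radix Preparata, 3 in place of 7 with Yijung-tang and 3 in place of 7 with Banhasasim-tang. Members lower were then 11, 7, 7, 12, 5 and 2 in that order, in place of 9, 8, 10, 14, 12 and 11. Cimicifugae Rhizoma at 500 µg/mL had 46 lower members against vehicle and 46 against 20 µg/mL after the same step.

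Titles place the replicated extracts in 3 sets of 2, which allows a direct comparison within a set. At 500 µg/mL Cimicifugae Rhizoma was below Citri Unshius Pericarpium for 46 of 47 members and above it for 0 (21.2% and 20.6% of all genes), by a median of 0.59 on the log2 scale. The fall with dose was itself deeper for 44 members and shallower for 0 (14.7% and 13.5%). Both counts of 0, and the same counts in the next set, were also 0 at an unadjusted p under 0.05 and with DESeq2. MCM3 differed by -0.86 ± 0.040, MCM7 by -0.80 ± 0.054 and MCM4 by -0.66 ± 0.043. The members whose dose effect was not called different were CCNE1, CCNE2 and E2F1, all 3 of the S-phase entry role.

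Aconiti Lateralis Radix Preparata at 500 µg/mL was below Bupleuri Radix for 29 members and above for 0 (11.2% and 12.3% of all genes). The dose effect was deeper for 14 and shallower for 0 (4.98% and 5.19%), led by TK1 (-0.56 ± 0.075), ASF1B (-0.40 ± 0.073) and MCM2 (-0.33 ± 0.063). The 14 included 5 of the 6 helicase genes, all but MCM3, whose difference was -0.06 ± 0.039. The count was 9 without Aconiti Lateralis Radix Preparata replicate 1 at 500 µg/mL. In the third set, Banhasasim-tang at 500 µg/mL was below Yijung-tang for 5 members and above for 1 (6.98% and 7.89%). The dose effect was lower for 2, ASF1B (-0.29 ± 0.070) and CDT1 (-0.28 ± 0.083), and higher for 2, RRM2 (0.19 ± 0.048) and CLSPN (0.32 ± 0.095), where 5.03% and 7.07% of all genes were called. This last set's counts moved with single libraries: members lower at 500 µg/mL were 2 without Banhasasim-tang replicate 2 or Yijung-tang replicate 1 and 3 without Banhasasim-tang replicate 3, all at 500 µg/mL. Members with a lower dose effect were 1 without Banhasasim-tang replicate 2 or Yijung-tang replicate 2 at 500 µg/mL, 4 without Banhasasim-tang replicate 1 at 20 µg/mL, and 6 without Yijung-tang replicate 3 at 500 µg/mL. Members with a higher dose effect were 1 without Banhasasim-tang replicate 1 or Yijung-tang replicate 1 at 20 µg/mL, or without replicate 2 of either at 500 µg/mL, and members higher at 500 µg/mL were 2 without Yijung-tang replicate 1.

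Other genes of the pathway moved the same way with the active extracts. Of 36 further replication genes, 30 fell and 1 rose with Cimicifugae Rhizoma (median -0.43), 24 fell and 2 rose with Aconiti Lateralis Radix Preparata (-0.24), and 18 fell and 1 rose with Bupleuri Radix (-0.16). Of all genes, 19.7%, 18.1% and 8.89% fell with these extracts in that order, and 19.5%, 19.2% and 9.9% rose. TICRR, needed to fire origins, went from 56.5 to 31.6 CPM (group means) with Cimicifugae Rhizoma (-0.85 ± 0.076) and from 58.0 to 32.2 CPM with Aconiti Lateralis Radix Preparata (-0.85 ± 0.074). POLD4, the small accessory subunit of DNA polymerase delta, was the one that rose with all 3 extracts, by 1.09, 0.56 and 0.52 on the log2 scale, against -0.54 for its catalytic partner POLD1 with Cimicifugae Rhizoma. POLE4 rose as well with Aconiti Lateralis Radix Preparata (0.31). Banhasasim-tang lowered SLBP, which binds histone mRNA (-0.26), and RNASEH2A (-0.19), and the list's median was 0.04 with Citri Unshius Pericarpium and 0.02 with Yijung-tang.

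Among 29 genes that control entry into S phase, 19 fell and 1 rose with Cimicifugae Rhizoma, 18 fell and 2 rose with Aconiti Lateralis Radix Preparata, and 14 fell and 1 rose with Bupleuri Radix. Of all genes, 19.7%, 18.1% and 8.89% fell with these extracts in that order, and 19.5%, 19.2% and 9.9% rose. SKP2, which marks CDKN1B for breakdown, changed by -1.07 ± 0.046, -1.03 ± 0.045 and -0.45 ± 0.043. CCNA2, the A-type cyclin of S phase, changed by -0.96, -0.73 and -0.39. The E2F family split: E2F2 (-0.84, -0.59 and -0.27), E2F7 (-0.72, -0.58 and -0.26) and E2F8 (-1.02, -0.81 and -0.37) fell with all 3 extracts, whereas E2F3 and E2F5 were called with none of them. E2F4 fell with Cimicifugae Rhizoma alone among these 3 (-0.29), and E2F6 rose with Aconiti Lateralis Radix Preparata alone (0.26). No test compared Cimicifugae Rhizoma with either of the others for these genes. Aconiti Lateralis Radix Preparata and Bupleuri Radix were compared within their set, and the result for E2F6 is not reported here. The other risen genes were MYC with Cimicifugae Rhizoma (0.26) and Aconiti Lateralis Radix Preparata (0.36), and RB1 with Bupleuri Radix (0.13).

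Inhibitors of the cyclin-dependent kinases did not share a direction. CDKN1A, which encodes p21, went from 98.4 to 150 CPM with Cimicifugae Rhizoma (0.60 ± 0.042), from 104 to 201 CPM with Aconiti Lateralis Radix Preparata (0.94 ± 0.041) and from 100 to 118 CPM with Bupleuri Radix (0.23 ± 0.041). CDKN2B rose by 1.06, 1.01 and 0.86, from low group means at 20 µg/mL (5.95, 4.98 and 5.73 CPM) to 12.5, 10.1 and 10.4 CPM. CDKN2A, also low, rose by 0.83 with Cimicifugae Rhizoma (from 3.41 CPM) and 0.65 with Aconiti Lateralis Radix Preparata (from 3.61 CPM). It was not called with Bupleuri Radix (0.46), and CDKN2D was called with none of these extracts. CDKN2C fell by 1.03, 1.09 and 0.55, and CDKN3 by 0.65, 0.63 and 0.21. CDKN1B fell by 0.25 with Cimicifugae Rhizoma and by 0.15 with Bupleuri Radix. With Banhasasim-tang CDKN1A rose by 0.33, CDKN2B rose by 0.29, CDKN2C fell by 0.30 and CDKN3 fell by 0.21, beside 5 called members. With Yijung-tang, where no member was called, CDKN2B went the other way, from 5.87 to 3.24 CPM (-0.86 ± 0.10, adjusted p = 2.62e-08). The order of the extracts also differed: CDKN1A rose further with Aconiti Lateralis Radix Preparata than with Cimicifugae Rhizoma, and the members fell further with Cimicifugae Rhizoma, a difference between sets that was not tested.

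**Figure D5:**
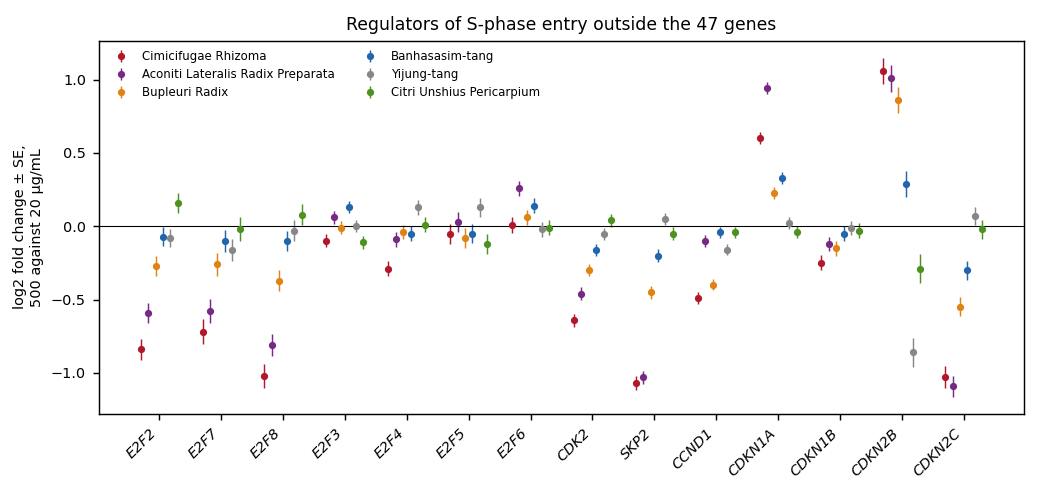
Log2 fold change between 500 and 20 µg/mL with its standard error (vertical axis) for regulators of S-phase entry outside the 47 genes, in 6 extracts (colours). E2F2, E2F7, E2F8, SKP2 and CDKN2C lie below 0 and CDKN1A and CDKN2B above 0 with the 3 extracts that lowered the members.

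Mitotic genes, which act later in the cycle, were lower too. All 22 listed fell with Cimicifugae Rhizoma (median -0.82) and with Aconiti Lateralis Radix Preparata (-0.73), 19 with Bupleuri Radix (-0.28) and 6 with Banhasasim-tang. Of all genes, 19.7%, 18.1%, 8.89% and 6.52% fell with these extracts in that order. The summed level of the mitotic genes went from between 3267.0 and 3332.8 CPM to between 1840.3 and 1888.8 CPM with Cimicifugae Rhizoma. With Aconiti Lateralis Radix Preparata it went from between 3318.6 and 3392.2 CPM to between 2025.0 and 2043.3 CPM. KIF20A, a kinesin of cell division, changed by -1.04 with the former and -1.11 with the latter. The mitotic median lay below the members' median with each of the active herbs. It was -0.82 against -0.55 with Cimicifugae Rhizoma and -0.73 against -0.36 with Aconiti Lateralis Radix Preparata. With Bupleuri Radix it was -0.28 against -0.17.

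Of 15 genes of the response to stalled forks, 12 fell and 1 rose with Cimicifugae Rhizoma (19.7% and 19.5% of all genes). With Aconiti Lateralis Radix Preparata 10 fell and 3 rose (18.1% and 19.2%), and with Bupleuri Radix 6 fell and 1 rose (8.89% and 9.9%). XRCC2, which acts in repair by recombination, changed by -0.67 with Cimicifugae Rhizoma. HUS1, part of a checkpoint clamp, rose with Aconiti Lateralis Radix Preparata (0.43), Bupleuri Radix (0.24) and Banhasasim-tang (0.40), and RAD17, its loader, by 0.13 with Cimicifugae Rhizoma and 0.14 with Aconiti Lateralis Radix Preparata, where ATR also rose (0.21). Of 15 listed p53 targets, 5 rose and 3 fell with Cimicifugae Rhizoma (19.5% and 19.7% of all genes; median 0.08), 9 rose and 3 fell with Aconiti Lateralis Radix Preparata (19.2% and 18.1%; median 0.21), and 3 rose and 3 fell with Bupleuri Radix (9.9% and 8.89%; median -0.01). GDF15 rose by 1.96, 2.26 and 1.13 and PLK3 by 0.88, 1.12 and 0.49, while FDXR fell by 0.44, 0.41 and 0.33 and SESN1 by 0.36, 0.35 and 0.17. Against vehicle, 5 rose and 4 fell with Aconiti Lateralis Radix Preparata at 500 µg/mL (median 0.01).

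Signs of RNA handling and cell identity moved alongside with Cimicifugae Rhizoma and Aconiti Lateralis Radix Preparata. Of all genes, 19.7% and 18.1% fell with these extracts, and 19.5% and 19.2% rose. The summed level of the 13 RNA quality transcripts was 1441.2 to 1516.3 CPM at 20 µg/mL Cimicifugae Rhizoma and 1677.4 to 1746.3 CPM at 500 µg/mL, with 5 of 13 higher and 1 lower. With Aconiti Lateralis Radix Preparata it was 1294.9 to 1428.1 and 1468.8 to 1662.3 CPM, again 5 higher and 1 lower. The 12 hepatocyte markers fell in 8 and rose in 1 of 12 cases with Cimicifugae Rhizoma, and fell in 9 of 12 with Aconiti Lateralis Radix Preparata (medians -0.17 and -0.20). With Bupleuri Radix 1 RNA quality transcript was higher and 2 lower, and 3 hepatocyte markers fell and 1 rose. There 8.89% of all genes fell and 9.9% rose. The part of these shifts in the members' fall was not tested.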

How the data were processed

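The authors deposited expected counts per gene from RSEM for 60 libraries of HepG2 mRNA. Per the submitters' processing notes, FastQC 0.11.9, Trim Galore 0.6.5, STAR 2.7.3a and RSEM 1.3.3 were used on GRCh38. The annotation release and the strand setting of the counting are not given in the sources used here. Gene symbols were matched by Ensembl identifier to GENCODE 29, and 207 columns of the table that belong to no sample here were not used. Depth was 17598646 to 30451640 expected counts per library.

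Expected counts were rounded. The 57 libraries of the 19 groups with 3 replicates were fitted together in edgeR 4.0.16 (R 4.3.3, limma 3.58.1) with TMM scaling, the filterByExpr filter and the quasi-likelihood test, with 1 mean per group. P-values were adjusted by Benjamini-Hochberg over 16093 genes and called under 0.05. CPM values use TMM-scaled library sizes. The scripts were tested on simulated data. The members, the other gene lists and the tests were chosen with earlier results of these data known, so their direction is not independent support.

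Values per library were chosen for the member with the highest mean CPM of each role and for the 3 lowest and 3 highest log2 changes per extract. Members called against the prevailing direction were named, as were, for dose-effect differences, the 3 smallest p per set and, for other lists, up to 4 called genes with the largest change. MYC, RB1, RAD17, HUS1, ATR, POLE4, RNASEH2A, FDXR, SESN1 and further members given as examples were chosen after their values were seen.

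Replicate numbers were checked for pairing by the correlation of same-numbered libraries' deviations from their group means. Every pair exceeded 0.1 in 4 comparisons: Aconiti Lateralis Radix Preparata 500 against 20 µg/mL (0.146 to 0.278) and 100 against 20 µg/mL (0.219 to 0.408), Banhasasim-tang 100 against 20 µg/mL (0.257 to 0.654) and Bupleuri Radix 500 against 20 µg/mL (0.154 to 0.513). Alternatives were median-ratio size factors, other low-count filters, DESeq2 1.42.0, a replicate block, fits on the libraries of a title set, removal of each library's trend on GC content, and leaving out each library.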

Additional observations from a re-analysis of the deposited data

Results flagged for a closer look

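For some members, the change from 20 to 500 µg/mL differed between the paired extracts of a set. The test was edgeR's of the difference itself, with Benjamini-Hochberg adjustment over all genes. Between Cimicifugae Rhizoma and Citri Unshius Pericarpium the change differed for 44 of 47 members. The smallest p-values were those of MCM3 (-0.86 on the log2 scale, adjusted p = 1.24e-22), MCM4 (-0.66) and MCM7 (-0.80). Of all genes, 14.7% were called lower and 13.5% higher in this test. Between Aconiti Lateralis Radix Preparata and Bupleuri Radix the change differed for 14 members, with TK1 at -0.56 (adjusted p = 1.95e-07), ASF1B at -0.40 and MCM2 at -0.33. Of all genes, 4.98% were called lower and 5.19% higher. Between Banhasasim-tang and Yijung-tang the change differed for 4 members, among them ASF1B at -0.29 (adjusted p = 0.00307), RRM2 at 0.19 and CDT1 at -0.28. Of all genes, 5.03% were called lower and 7.07% higher, together a larger share than that of the members. No explanation of these differences was tested.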

How the results depend on the processing

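No result of a single named member reversed. The direction with more called members did change in some comparisons. Against vehicle, Banhasasim-tang at 20 µg/mL had 11 lower and 7 higher. These were 2 and 3 with the GC trend removed and 3 and 8 with no low-count filter. They were 5 and 7 with only the libraries of the title set. Citri Unshius Pericarpium at 500 µg/mL went from 5 lower and 6 higher to 6 and 5 with the GC trend removed. Lower members at 500 against 20 µg/mL were 46 with Cimicifugae Rhizoma without any 1 library. They were 38 to 43 with Aconiti Lateralis Radix Preparata and 24 to 30 with Bupleuri Radix. With the replicate block these counts were 46, 42 and 32. The block moved no count by over 1.5 times except 1. Members higher with Yijung-tang (500 against 20 µg/mL) went from 0 to 1. Counts of lower members that moved by over 1.5 times lie in the smaller comparisons, and the cause was not tested. With no low-count filter they were 9 for Aconiti Lateralis Radix Preparata (20 µg/mL against vehicle), 7 and 7 for Yijung-tang (500 and 20 µg/mL against vehicle), 3 for Banhasasim-tang (20 µg/mL against vehicle) and 9 for the dose effect of Aconiti Lateralis Radix Preparata against Bupleuri Radix. With only the libraries of the title set they were 14 for Citri Unshius Pericarpium and 13 for Cimicifugae Rhizoma (20 µg/mL against vehicle), 1 and 5 for Banhasasim-tang (500 against 20 µg/mL, 20 µg/mL against vehicle) and 8 for the dose effect of Aconiti Lateralis Radix Preparata against Bupleuri Radix. With the GC trend removed they were 6 and 5 for Yijung-tang (500 and 20 µg/mL against vehicle), 5 and 2 for Banhasasim-tang (500 against 20 µg/mL, 20 µg/mL against vehicle) and 4 for the dose effect of Banhasasim-tang against Yijung-tang. With the GC trend removed and the replicate block together these 5 were 6, 5, 6, 2 and 6. That last dose effect gave 4 with DESeq2 and 4 with a mean CPM of 1 or more. Leaving out 1 library at a time gave 9 to 13 for the dose effect of Aconiti Lateralis Radix Preparata against Bupleuri Radix, 1 to 2 for Aconiti Lateralis Radix Preparata 100 against 20 µg/mL, 2 to 7 and 1 to 6 for Banhasasim-tang against Yijung-tang (at 500 µg/mL, dose effect), 1 to 4, 9 to 14 and 5 to 9 for Banhasasim-tang (500 against 20 µg/mL, 500 and 20 µg/mL against vehicle), 7 to 14 and 7 to 11 for Yijung-tang (500 and 20 µg/mL against vehicle) and 4 to 8 for Cimicifugae Rhizoma (20 µg/mL against vehicle). Of 36 called results of single named members, 4 lost the call under any alternative. With no low-count filter the adjusted p in edgeR was 0.224 for CDC6 and 0.0968 for FEN1 with Bupleuri Radix. The lowest member count in a library was 67, of CCNE2, which limits what can be seen in that gene.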
